A study of Mus musculus with 6 samples.

Results

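The genes described here encode the transcription factors CREB and CREM, their coactivators and 3 subunits of protein kinase A (PKA), as RNA-seq measured them in whole brains of mice that had eaten a control diet or one with PLDP, a protease-treated decomposition product of porcine liver. The members are Creb1, Crem, Crebbp, Ep300, Crtc1, Crtc2, Crtc3, Prkaca, Prkacb and Prkar1b. They were found by their Ensembl identifiers in GENCODE M21 and make up 10 of the 60354 features in the files. The study asked how long-term PLDP ingestion relates to memory, emotional behavior and gene expression in the brain. Male C57BL/6NCrSlc mice, 16 weeks old at the start, received modified AIN-93M food for 16 weeks. It either contained PLDP at 20% or lacked it with the calories adjusted to match. The PLDP food also held less casein and soybean oil and more cystine and α-cornstarch than the control food. RNA came from 3 mice of each diet, numbered 2, 5 and 10 in the labels for control and 17, 22 and 26 for PLDP. All 6 mice had gone through the same series of behavioral tests, in which the PLDP diet was no longer given, and RNA was extracted 1 day after the last test. A whole brain averages over regions, and in such bulk RNA fewer cells of a type and less RNA per cell cannot be told apart.

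PKA is a complex of catalytic and regulatory subunits. Cyclic AMP binds the regulatory subunits and frees the catalytic subunits, which phosphorylate CREB bound to cAMP response elements in promoters. Phosphorylated CREB recruits the acetyltransferases CBP (encoded by Crebbp) and p300 (Ep300), while the CRTC coactivators enter the nucleus when they are dephosphorylated by calcineurin. In neurons this pathway links synaptic activity to transcription and is known for its role in long-term memory.

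The letters of the response element were searched in RefSeq promoter windows of GRCm38.p6, each reaching from 250 bases before to 50 bases after a gene's start. The exact element, TGACGTCA, reads the same on both strands, and its 5-base core was searched as TGACG or CGTCA. The following 4 stretches, from genes described as CREB targets, are shown because they hold the exact element, in capitals. They lie on the minus strand at chr13:99900777-99900806 (Cartpt), chr17:26508597-26508626 (Dusp1), chr1:79440076-79440105 (Scg2) and chr16:23890874-23890903 (Sst), with the element 112, 143, 68 and 48 bases before the start, and read 5′ to 3′ on the gene's strand.
Cartpt: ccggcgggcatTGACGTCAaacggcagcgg
Dusp1: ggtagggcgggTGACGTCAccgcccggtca
Scg2: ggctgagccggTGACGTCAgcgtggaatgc
Sst: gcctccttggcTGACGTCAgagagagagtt

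Windows were found for 8 of the 10 members, 15 windows in all, and not for Crem or Crtc2. None of the 15 windows held the exact element, or a copy with at most 1 mismatch, against 1.79% and 12.5% of all 32851 windows. The core was found in 3 of the 15 windows, a share close to the 20.8% of all windows, 1 each for Prkar1b, Prkacb and Prkaca. The stretches are shown with the core in capitals, at chr5:139150033-139150062 on the minus strand for Prkar1b, chr3:146813031-146813060 on the minus strand for Prkacb, and chr8:83972846-83972875 and chr8:83972960-83972989 on the plus strand for Prkaca.
Prkar1b: tagagggcggagTGACGggcaggaggacga
Prkacb: ggggcttgaccgCGTCActtccggcgcgcc
Prkaca, first: gtctgcaactcgCGTCActcatccaggagc
Prkaca, second: gggctgcgggggCGTCAcggacagaggact
A match of letters describes the sequence and is not a measured site of binding. It says nothing of transcription starts outside these windows.

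Of the 10 members, Crebbp rose and Prkacb fell in the PLDP mice, and the other 8 did not pass the test. Values are given as CPM, counts relative to a common library size after edgeR's TMM scaling, and the test was edgeR's quasi-likelihood test at an unadjusted p under 0.05. All 10 members passed the filter on low counts, with between 305 and 14535 counts in a mouse. Of the 18580 features tested, 4.91% were called higher and 3.69% lower in the PLDP mice, and the members gave 1 call in each direction. After Benjamini-Hochberg adjustment over all features, 0 members passed an adjusted p of 0.05 in edgeR's quasi-likelihood test, against 0.0323% of all features (6 features), and 0 did in limma voom or edgeR's exact and likelihood ratio tests. DESeq2 gave an adjusted p for 8 members, of which 0 passed, and none for Crem and Crtc3. All PLDP mice lay above all control mice for 2 members (7.29% of all features) and below them for 1 member (6.9% of all features). The fold changes were small throughout: the median log2 fold change was 0.03 over the members and close to 0 over all features tested, and 7 members had a positive value where 49.77% of all features did.

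**Figure D1:**
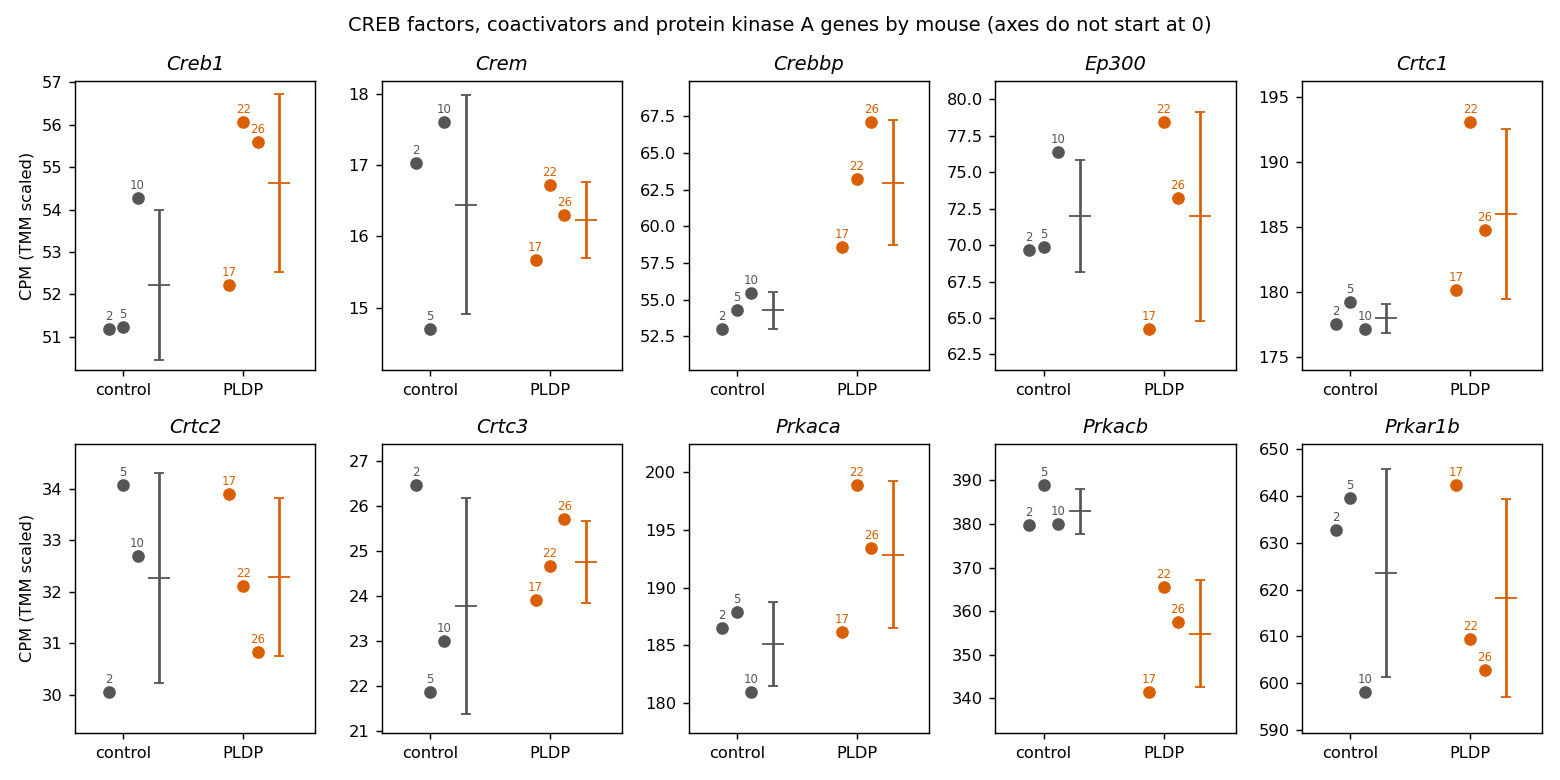
CPM after TMM scaling (vertical axes, which do not start at 0) of the 10 genes in each mouse, numbered as in the labels, with the mean and SD of each diet (n = 3 mice) at the right of the points. The control and PLDP mice are separated for Crebbp, Crtc1 and Prkacb, and overlap for the other 7 genes.

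Prkacb, the gene of the catalytic subunit Cβ of PKA (ENSMUSG00000005034, GRCm38 chr3:146729574-146812990, minus strand), was measured at 379.8, 388.9 and 380.0 CPM in control mice 2, 5 and 10 and at 341.5, 365.5 and 357.5 CPM in PLDP mice 17, 22 and 26. Each PLDP mouse was below each control mouse, and PLDP mouse 17 was the lowest. The control mean was 382.9 ± 5.20 CPM and the PLDP mean 354.8 ± 12.2 CPM (SD over 3 mice), so that Prkacb fell by 0.11 on the log2 scale (SE 0.04, 95% interval -0.19 to -0.03). The unadjusted p was 0.0108 and the adjusted p 0.421 in edgeR's quasi-likelihood test. Prkacb has several alternative first exons, and gene counts do not separate its isoforms.

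Prkaca, which encodes the other widely expressed catalytic subunit, Cα (ENSMUSG00000005469, chr8:83972993-83996443, plus strand), was at 186.5, 187.9 and 181.0 CPM in the control mice and 186.2, 198.9 and 193.5 CPM in the PLDP mice. PLDP mouse 17 lay within the control range and the other two lay above it. The log2 fold change of 0.06 (SE 0.04, 95% interval -0.03 to 0.14, unadjusted p = 0.164, adjusted p = 0.732 in edgeR's quasi-likelihood test) did not pass. Without PLDP mouse 17 it was 0.08 with an unadjusted p of 0.0349 and an adjusted p of 0.354 (0.354 to 0.924 over all alternatives).

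Prkar1b, the regulatory subunit RIβ, which is found mainly in neurons (ENSMUSG00000025855, chr5:139017306-139150001, minus strand), had the most counts of the 10 genes. Its CPM were 632.7, 639.6 and 598.2 in the control mice and 642.3, 609.4 and 602.8 in the PLDP mice, and the diets overlapped. The log2 fold change was -0.01 (95% interval -0.09 to 0.07, unadjusted p = 0.754). Exons of the predicted gene Gm15672 overlap Prkar1b on the same strand over 341 bases, so reads there may have been assigned to either.

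The catalytic subunit genes were also set against each other within each mouse. Prkacb over Prkaca, both per kilobase of exon, was 0.578, 0.587 and 0.596 in the control mice and 0.520, 0.521 and 0.524 in the PLDP mice. The ratio was thus lower in every PLDP mouse than in every control mouse, with means of 0.587 ± 0.00898 and 0.522 ± 0.00196 (SD, n = 3 each), a difference of -11.1% between the means. The ratio carries no test, since it combines genes whose values were already seen. The summed catalytic genes over the 4 regulatory subunit genes gave 0.337 ± 0.0017 and 0.346 ± 0.00997, with the diets overlapping. Prkar1b over Prkar1a, the gene of the other type I regulatory subunit, was 1.02 ± 0.0287 and 1.05 ± 0.0723, again with overlap.

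**Figure D2:**
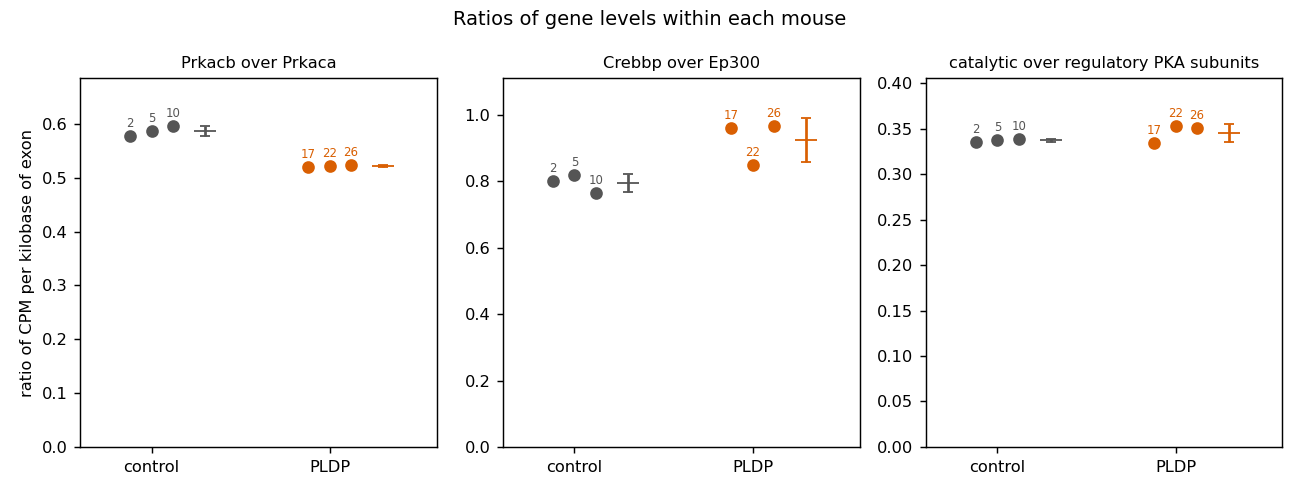
Ratio of CPM per kilobase of exon (vertical axis) within each numbered mouse, for Prkacb over Prkaca, Crebbp over Ep300, and the summed catalytic over the summed regulatory PKA genes, with the mean and SD of each diet (n = 3 mice). The first is lower and the second higher in all PLDP mice, and the third overlaps between the diets.

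Crebbp, which encodes the histone acetyltransferase and CREB-binding protein CBP (ENSMUSG00000022521, chr16:4081328-4213997, minus strand), was at 53.0, 54.3 and 55.5 CPM in control mice 2, 5 and 10 and at 58.6, 63.2 and 67.1 CPM in PLDP mice 17, 22 and 26. The PLDP mice were all above the control mice and were spread more widely. The mean rose from 54.3 ± 1.24 to 63.0 ± 4.25 CPM (SD, n = 3 each), with a fitted log2 fold change of 0.21 (SE 0.06, 95% interval 0.10 to 0.33). The unadjusted p was 0.00138 and the adjusted p 0.256 in edgeR's quasi-likelihood test. Leaving out PLDP mouse 17, the lowest of its diet, brought the adjusted p to 0.012, and over all alternatives it lay between 0.012 and 0.788.

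Ep300, the gene of the paralogous acetyltransferase p300 (ENSMUSG00000055024, chr15:81585351-81652077, plus strand), was at 69.7, 69.9 and 76.4 CPM in the control mice and 64.3, 78.4 and 73.2 CPM in the PLDP mice. PLDP mouse 17 was the lowest and PLDP mouse 22 the highest of the 6 mice, and the log2 fold change was 0.0009 (SE 0.06, 95% interval -0.14 to 0.14, unadjusted p = 0.989). Its sign changed between scalings and tests. Crebbp over Ep300 per kilobase was 0.802, 0.819 and 0.766 in the control mice and 0.961, 0.850 and 0.966 in the PLDP mice. Every PLDP mouse had the higher ratio, with means of 0.796 ± 0.0274 and 0.926 ± 0.0654 (SD, n = 3 each, no test). How the counting treated reads shared between these paralogs is not given in the sources used here, nor is it for Prkaca and Prkacb.

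Among the CREB factors themselves, neither gene passed the test. Creb1, the gene of CREB (ENSMUSG00000025958, chr1:64532645-64604548, plus strand), was at 51.2, 51.2 and 54.3 CPM in the control mice and 52.2, 56.1 and 55.6 CPM in the PLDP mice. PLDP mice 22 and 26 were above all control mice and PLDP mouse 17 was not. The log2 fold change was 0.06 (SE 0.05, 95% interval -0.05 to 0.18, unadjusted p = 0.237). CREB activity is set mainly by phosphorylation, which these counts do not measure.

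Crem, the gene of the cAMP response element modulator (ENSMUSG00000063889, chr18:3266048-3337748, minus strand), had the fewest counts of the members. It was at 17.0, 14.7 and 17.6 CPM in the control mice and 15.7, 16.7 and 16.3 CPM in the PLDP mice, all of which lay between the lowest and the highest control mouse. The log2 fold change was -0.02 (SE 0.09, 95% interval -0.20 to 0.16, unadjusted p = 0.848). Its 39 annotated transcripts include activators and repressors such as the inducible repressor ICER, and the gene count adds them up. The predicted gene Gm6225 overlaps its exons on the opposite strand over 472 bases.

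None of the CRTC genes, whose products bind CREB and raise transcription from response elements, passed the test. Crtc1, the member of this family most tied to neurons (ENSMUSG00000003575, chr8:70382355-70439579, minus strand), was at 177.6, 179.2 and 177.2 CPM in the control mice and 180.2, 193.1 and 184.8 CPM in the PLDP mice. All PLDP mice were above all control mice, but PLDP mouse 17 only narrowly. The log2 fold change was 0.06 (SE 0.04, 95% interval -0.02 to 0.15, unadjusted p = 0.132, adjusted p = 0.694 in edgeR's quasi-likelihood test). Without PLDP mouse 17 it was 0.09, with an unadjusted p of 0.0305 and an adjusted p of 0.337 (0.337 to 0.927 over all alternatives).

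Crtc2 (ENSMUSG00000027936, chr3:90254163-90264125, plus strand), known best from glucose production in the liver, was at 30.1, 34.1 and 32.7 CPM in the control mice and 33.9, 32.1 and 30.8 CPM in the PLDP mice. Its log2 fold change was 0.0008 (95% interval -0.14 to 0.14, unadjusted p = 0.99), with a sign that changed between scalings. Crtc3 (ENSMUSG00000030527, chr7:80586627-80688877, minus strand) was at 26.5, 21.9 and 23.0 CPM in the control mice and 23.9, 24.7 and 25.7 CPM in the PLDP mice. The diets overlapped for both genes, and Crtc3 had a log2 fold change of 0.06 (95% interval -0.10 to 0.22, unadjusted p = 0.459). Of the summed CRTC level per kilobase, Crtc1 made up 60.7% ± 0.501 under the control diet and 61.5% ± 1.28 under PLDP (SD over 3 mice), with overlap.

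**Figure D3:**
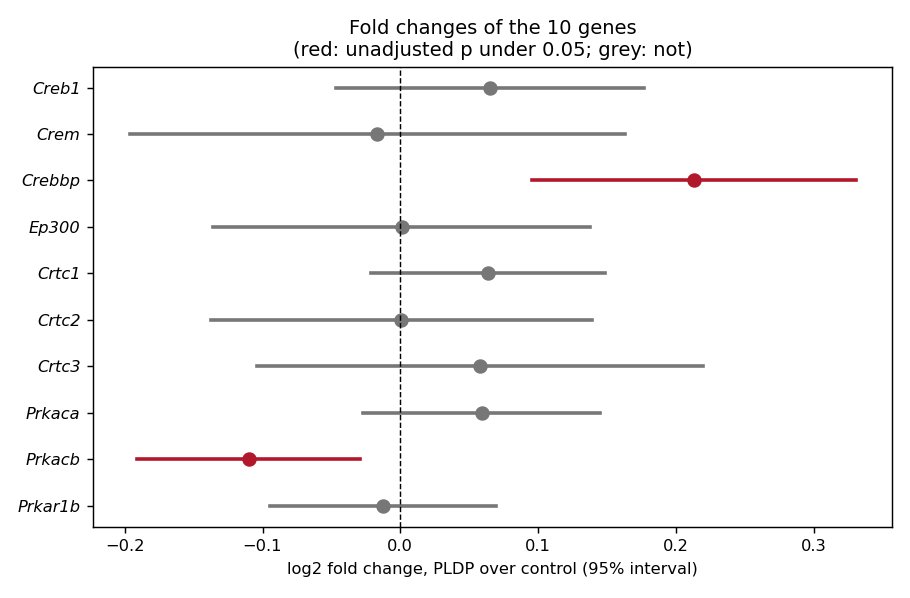
Log2 fold change of PLDP over control (horizontal axis) with its 95% interval from edgeR's quasi-likelihood fit, 1 line per gene, red where the unadjusted p is under 0.05. The intervals of Crebbp (0.10 to 0.33) and Prkacb (-0.19 to -0.03) lie to one side of 0, and the other 8 cross it.

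Per length, the PKA genes were the most abundant members in the brain. CPM per kilobase of merged exon, averaged over all 6 mice, were 163 ± 5.15 for Prkar1b, 76.0 ± 2.53 for Prkaca and 42.1 ± 2.00 for Prkacb (SD, n = 6). Among the regulatory subunits outside the members, Prkar1a reached 158 ± 5.06, while Prkar2b and Prkar2a reached 13.6 ± 0.798 and 11.1 ± 0.556. Crtc1 followed at 16.3 ± 0.543 and Crtc2 at 7.88 ± 0.394. Ep300 (5.04 ± 0.36), Crebbp (4.33 ± 0.408) and Creb1 (3.89 ± 0.158) lay close together, and the ranges over mice overlapped between Ep300 and Crebbp and between Crebbp and Creb1. Crem (2.77 ± 0.176) and Crtc3 (2.46 ± 0.173) were lowest, also with overlapping ranges. The order depended on the length used: per kilobase of the longest transcript, Prkacb (84.9) stood above Prkaca (83.0) and Crebbp moved to rank 9.

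**Figure D4:**
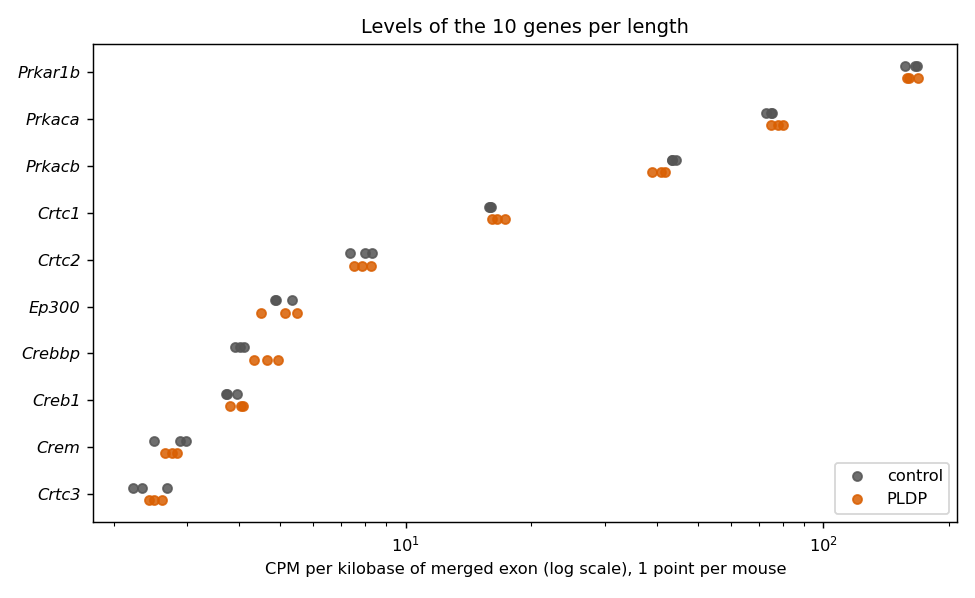
CPM per kilobase of merged exon on a log axis, 1 point per mouse and 1 row per gene, ordered by the mean over the 6 mice. Prkar1b is highest at 157.0 to 168.6 and Crtc3 lowest at 2.22 to 2.69.

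The genes whose pattern over the 6 mice came nearest to that of Crebbp were Shank1, Nfia and Sgsm1. Their log2 CPM, centred on each gene's mean, differed from it by a root mean square of 0.0221, 0.0232 and 0.0245, out of 10208 genes compared. For Prkacb they were Dnajc27, Bzw1 and Rtn4, at 0.0085, 0.0098 and 0.0106. With 6 mice, such likeness is a description.

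Upstream of the members, the other regulators of PKA held 2 lower and 0 higher calls among 6 genes tested, where 3.69% of all features were called lower and 4.91% higher. Pkia, the heat-stable PKA inhibitor α, was at 158.7, 155.9 and 159.4 CPM in the control mice and 141.3, 143.8 and 133.8 CPM in the PLDP mice. Its PLDP mice all lay below the control mice, and it fell by 0.18 on the log2 scale (SE 0.04, unadjusted p = 6.01e-04, adjusted p = 0.189 in edgeR's quasi-likelihood test). With no filter on low counts its adjusted p was 0.0331 and without PLDP mouse 17 it was 0.0336 (0.0331 to 0.672 over all alternatives). Prkar2b, the type II regulatory subunit RIIβ, fell by 0.14 (SE 0.05), a call that was lost without PLDP mouse 26 or control mouse 5. Of 11 A-kinase anchoring proteins tested, which tether PKA to places in the cell, 1 was called higher, Akap8l (log2 fold change 0.18, adjusted p = 0.2 in edgeR's quasi-likelihood test and 0.0399 with no filter on low counts, the lowest of a range up to 0.679 over the alternatives). Without PLDP mouse 17 this list held 2 higher calls.

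The enzymes that make and break down cyclic AMP were called in both directions, beside the 4.91% of all features called higher and 3.69% called lower. Among 14 adenylyl cyclases and G protein α subunits tested, only Adcy4 was called higher (0.34 on the log2 scale), at a low 2.96 ± 0.0301 and 3.76 ± 0.174 CPM (SD, n = 3 each), and DESeq2, no filter on low counts, or leaving out any mouse but PLDP mouse 22 ended the call. Of 16 phosphodiesterases tested, Pde4b and Pde8a fell by 0.18 and 0.20. Pde4c, with under 4 CPM in every mouse, was called higher at 0.43, but not in DESeq2 or without PLDP mouse 17. The higher calls of this list numbered 3 without PLDP mouse 17 and 0 without PLDP mouse 22, control mouse 2 or control mouse 5.

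Of the kinases and the phosphatase that act on CRTCs, 7 genes were tested, of which 2 were called higher and 0 lower, beside 4.91% and 3.69% of all features. Sik2, a salt-inducible kinase that holds CRTCs in the cytoplasm, was at 47.9, 48.9 and 59.7 CPM in the control mice and 61.4, 66.2 and 63.1 CPM in the PLDP mice. Control mouse 10 was close to the PLDP mice, though all of these were higher, and Sik2 rose by 0.29 on the log2 scale (SE 0.07, adjusted p = 0.195 in edgeR's quasi-likelihood test). The adjusted p of Sik2 depended on the test and the mice: it was 0.0406 in edgeR's exact test, 0.0377 in its likelihood ratio test, 0.00056 with no filter on low counts and 0.0391 without PLDP mouse 17, with a range of 0.00056 to 0.785 over the 15 alternatives. Sik3 rose by 0.13 (SE 0.05) with overlapping mice and was not called without PLDP mouse 26 or control mouse 2. The list held 4 higher calls without PLDP mouse 17 and 1 without PLDP mouse 26. Of 14 other CREB kinases and CREB phosphatase genes tested, 0 were called in either direction by edgeR at an unadjusted p under 0.05, and 0 by DESeq2 or limma voom, while 1 was called higher without PLDP mouse 17.

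For the next 3 lists too, the shares over all features were 4.91% called higher and 3.69% lower. Among 16 relatives of CREB and ATF tested, 0 were called higher and 3 lower, Creb5, Crebrf and Crebzf, which fell by 0.42, 0.16 and 0.11 on the log2 scale. Crebzf was not called without PLDP mouse 26 or control mouse 2. Beside Crebbp and Ep300, 10 other lysine acetyltransferases were tested and 1, Kat2a, was called higher (0.16). That list held 3 higher calls without PLDP mouse 17, 2 without PLDP mouse 26 or control mouse 10, and 1 lower call without PLDP mouse 22. Of 11 histone deacetylases, which remove the acetyl groups, Hdac7 and Hdac5 were called higher (0.20 and 0.11) and Hdac2 lower (-0.11). Hdac5 was not called without PLDP mouse 26, nor Hdac2 without PLDP mouse 22, PLDP mouse 26 or control mouse 2.

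Of 23 genes described as CREB targets, all tested, 9 were called higher and 0 lower. The list held 20 positive fold changes and had a median log2 fold change of 0.14. It was written with earlier results of these data known, so these counts are a description. Of all features tested, 4.91% were called higher, 3.69% were called lower and 49.77% had a positive fold change. None passed an adjusted p of 0.05 in edgeR's quasi-likelihood test, while Vgf and Bdnf did in edgeR's exact and likelihood ratio tests and Vgf did in DESeq2, which gave no adjusted p for Bdnf. With upper-quartile factors, Vgf also passed in the quasi-likelihood test, at 0.0488. Vgf, a neuropeptide precursor, was at 223.5, 216.1 and 207.2 CPM in the control mice and 241.3, 261.3 and 277.7 CPM in the PLDP mice. Bdnf, which encodes a neurotrophin that supports synapses, was at 20.9, 20.2 and 21.1 CPM in the control mice and 25.3, 25.6 and 29.2 CPM in the PLDP mice. Both separated the diets, with log2 fold changes of 0.27 and 0.36 (adjusted p = 0.0735 and 0.0911 in edgeR's quasi-likelihood test). For Vgf the adjusted p was 0.00131 in DESeq2, 0.00174 in edgeR's exact test and 0.00176 in its likelihood ratio test, with a range of 1.54e-06 to 0.381 over the 15 alternatives, of which 6 passed. For Bdnf it was 0.00368 and 0.00369 in edgeR's exact and likelihood ratio tests, with a range of 0.00208 to 0.446 and 4 passes over the 14 alternatives that gave one. Nr4a2, an orphan nuclear receptor, rose by 0.23 (adjusted p = 0.291 in edgeR's quasi-likelihood test, 0.0282 without PLDP mouse 17, and 0.0282 to 0.702 over all alternatives) and was higher in all PLDP mice. The other 6 called were Inhba, Dusp1, Arc, Cartpt, Per1 and Fosb, named here after their values were seen.

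The count of called targets moved with the mice and the tool. It was 13 without PLDP mouse 17, 4 without PLDP mouse 22 and 5 without PLDP mouse 26 or control mouse 10. Without control mouse 2 or control mouse 5 it was 7. Calls over all features, both directions together, moved as well, from 1598 of 18580 with all mice to 2365 of 18848 without PLDP mouse 17. They numbered 1544 of 18881 without PLDP mouse 22, 1375 of 18994 without PLDP mouse 26 and 1610 of 19005 without control mouse 10. Without control mouse 2 they were 1133 of 19030, and without control mouse 5 1226 of 18888. DESeq2 gave 5 targets, limma voom 6 and no filter on low counts 12. Over all features, these settings called 926 of 18580, 1611 of 18580 and 2360 of 36099 in either direction. After adjustment, the quasi-likelihood test called 10 targets without PLDP mouse 17, 4 with no filter and 1, Vgf, with upper-quartile factors. The shares of all features after adjustment in these fits are not given here. In PLDP mouse 17, Arc (183.5 CPM), Dusp1 (45.8 CPM), Fosb (27.1 CPM) and Inhba (9.67 CPM) were below all control mice, while Cartpt (19.7 CPM) was the highest of the 6 mice. Among the members, 8 were lower in this mouse than in the other PLDP mice, and Crtc2 and Prkar1b were higher. Arc and Fosb are immediate early genes, which neuronal activity induces.

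**Figure D5:**
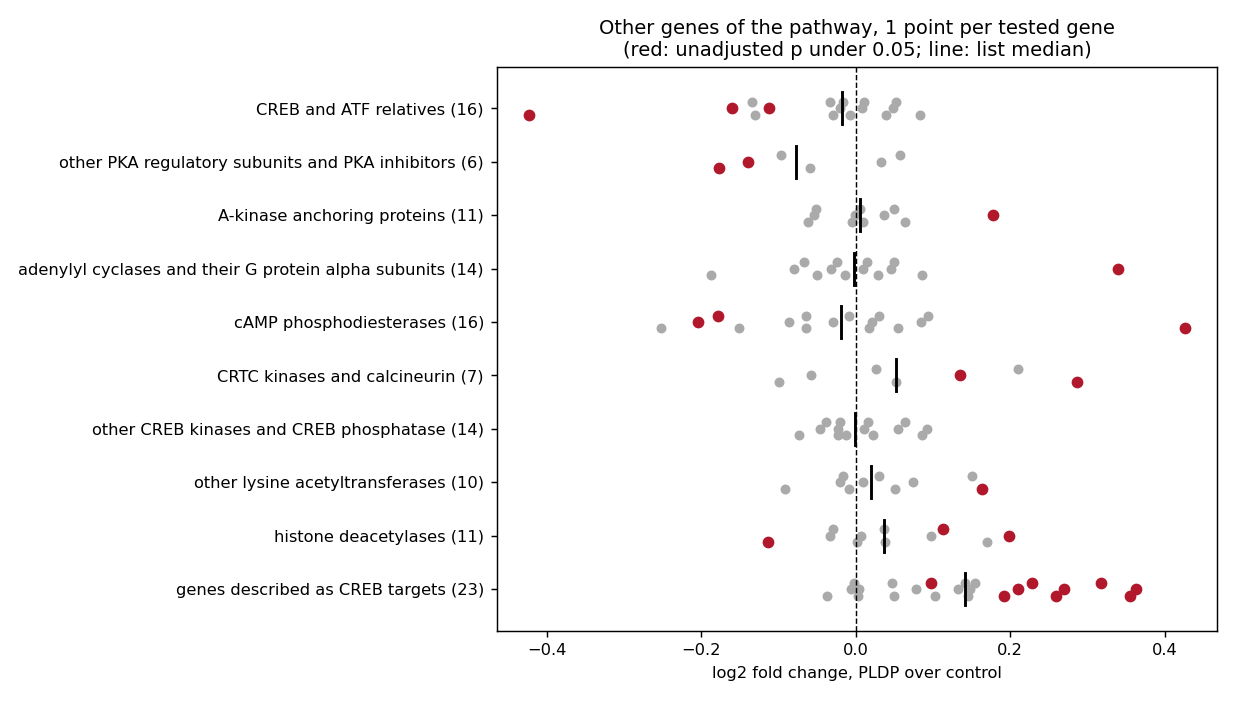
Log2 fold change of PLDP over control (horizontal axis) for each tested gene of 10 pathway lists, with the number tested in brackets, red where the unadjusted p is under 0.05 and a black line at the list's median. The CREB targets have the highest median (0.14) and the other PKA regulatory subunits and inhibitors the lowest (-0.08).

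Of the 16 target genes with a promoter window, 4 held the exact element, Cartpt, Dusp1, Scg2 and Sst, whose sequences are given with the promoter windows. Cartpt and Dusp1 were called higher, while Scg2 (285.5 ± 3.14 and 278.1 ± 28.1 CPM) and Sst (116.1 ± 3.23 and 120.3 ± 2.86 CPM; SD, n = 3 each) did not pass. Over all genes, 410 tested genes had the exact element in a window, of which 5.12% were called higher and 4.39% lower, beside 4.37% and 3.91% of the 12117 tested genes with any window. Their median log2 fold change was -0.0025, against -0.0058.

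Markers of brain regions and cell types moved between the diets, and their part in the results for the members was not tested. Of all features tested, 4.91% were called higher, 3.69% lower, and 49.77% had a positive fold change. All PLDP mice lay above all control mice for 7.29% of them and below for 6.9%. Hindbrain markers summed to 146.4 to 160.0 CPM in the control mice and 77.3 to 114.8 CPM in the PLDP mice, and of 10 tested all had negative fold changes and 9 were called lower. The choroid plexus sum was also lower in every PLDP mouse (719.2 to 770.4 against 562.8 to 710.3 CPM), with most of it from Ttr, and 2 of its 4 markers, Ttr and Folr1, were called lower. The microglia sum was lower in every PLDP mouse too (254.9 to 267.7 against 244.3 to 253.6 CPM), but 1 of 5 markers, P2ry12, was called and the other 4 overlapped between the diets. The sum of endothelial markers was higher in every PLDP mouse (138.5 to 145.8 against 149.2 to 153.4 CPM, 2 of 4 called higher). So was that of cortical and hippocampal projection neuron markers (1712 to 1824 against 1855 to 1918 CPM, 1 of 6 called higher). The summed markers of neurons as a whole (4433 to 4555 against 4395 to 4574 CPM), GABA neurons, striatum, cerebellar granule cells, astrocytes, oligodendrocytes, meninges and blood overlapped between the diets. Neuronal and glial markers were thus present as the label whole brain says, while pituitary markers had at most 2 counts in a mouse.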

How the data were processed

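RNA-seq libraries were made with a stranded kit for polyadenylated RNA from the brains of 3 control and 3 PLDP mice. The authors deposited 1 table of raw read counts per mouse, with 18797061 to 23938729 counts on genes and 2.53% to 2.80% of them mitochondrial. The submitters' processing notes list cutadapt 2.9, HISAT2 2.2.0, featureCounts 2.6.0 and DESeq2 1.6.3, and the builds GRCh38 and GRCm38; the build used for each step, the use of strand and the treatment of shared reads are not given in the sources used here. Identifiers were matched to GENCODE M21 (54777 of 55034 Ensembl identifiers).

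The analysis used edgeR 4.0.16 in R 4.3.3. Low counts were filtered by filterByExpr (minimum count 10, minimum total 15), libraries were scaled by TMM, and diet alone was fitted and tested by glmQLFit and glmQLFTest, with Benjamini-Hochberg adjustment over all 18580 features tested. Calls rest on an unadjusted p under 0.05, the study's threshold. For a single value, an exact permutation test over 3 and 3 mice could not go below a two-sided p of 0.1. Ratios and levels used merged exon lengths. Promoter windows were taken from RefSeq (GRCm38.p6). The fits were tested on simulated data. Python 3.11.15, pandas 2.3.3, numpy 2.4.6 and matplotlib 3.10.9 read and drew the data.

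Members and lists were chosen with earlier results of these data known. By rule, the text names all members, up to 3 genes per list and direction with the smallest p under 0.05, and for each called member the 3 tested genes of at least 10 CPM on average whose log2(CPM + 1) is nearest to it. Alternatives were other filters, scalings (relative log expression, upper quartile, library size), DESeq2 1.42.0, edgeR's exact and likelihood ratio tests, limma 3.58.1 voom, the longest transcript as length, raw counts for ratios, and leaving out each mouse.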

Additional observations from a re-analysis of the deposited data

How the results depend on the processing

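Crebbp and Prkacb kept their direction and an unadjusted p under 0.05 in all 15 alternatives, including those that left out 1 mouse. Leaving out each mouse in turn gave 1 to 3 members called higher, and 0 to 1 with an adjusted p under 0.05 in edgeR's quasi-likelihood test. The highest counts came without PLDP mouse 17, when Crtc1 and Prkaca were also called and Crebbp passed after adjustment. In that fit 2365 of 18848 features were called in either direction, against 1598 of 18580 with all mice. Calls were thus more frequent over all features without this mouse, and the list counts without it stand beside that rise. Signs changed for Ep300, Crtc2, Crtc3, Crem and Prkar1b, none of which was called. Ep300 had log2 fold changes of -0.0017 with library size only, -0.00181 in limma voom and -0.00166 with no filter, and Crtc2 had -0.00131 with library size only and -0.00186 with no filter. Leaving out each mouse took Ep300 from -0.0695 to 0.078, Crtc2 from -0.049 to 0.042, Crtc3 from -2.07e-05 to 0.14, Crem from -0.093 to 0.0341 and Prkar1b from -0.042 to 0.00598. The cause of these changes was not tested. Of 150 fold changes of members under the alternatives, 131 kept their direction and their side of the threshold. Raw counts in place of counts per kilobase turned the PLDP difference in the catalytic over regulatory ratio from 2.52% to -1.1%, with the diets overlapping in both. Other scalings moved the median of all genes by less than 0.1 on the log2 scale. No paired analysis was possible because the mouse numbers are not shared between the diets. Crem had the fewest counts and the largest standard error of the members, and how much of that error is counting noise was not tested.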
